A study of Mus musculus with 6 samples.

Results

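In RNA of crude mitochondria from mouse heart, 5 nuclear loci each held more than 1% of the nuclear counts in every library, out of 39142 nuclear rows in the count files. They are Gm42418, Lars2, Gm23935, Gm15564 and Mir6236, and they were chosen by this share, measured in the same 6 libraries, so the sizes of their shares are a description. The libraries came from 3 Polrmt knockout mice, which carried loxP-flanked Polrmt alleles and cre (titled L/L, cre; genotype Polrmt -/-), and from 3 control mice, which carried the flanked alleles without cre (titled L/L; genotype Polrmt +/+). All were C57BL/6N mice aged 3 to 4 weeks. Polrmt encodes the RNA polymerase of mitochondria. Its exon 3 is the flanked part, and cre was expressed from the muscle creatine kinase promoter, so heart cells other than muscle keep the gene. Polrmt itself had 2, 5 and 1 counts in the knockout libraries, against 3, 2 and 1 in the control libraries, and a gene-level count does not resolve the deleted exon. Markers of heart muscle cells were present in every library, with counts for 8 of 8 genes.

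Ribosomes of the cytosol contain 18S, 5.8S and 28S rRNA, which RNA polymerase I transcribes in the nucleolus as 1 long precursor with spacers between them, and 5S rRNA, which RNA polymerase III makes from separate genes. Ribosomes of mitochondria contain a smaller pair of rRNAs that are encoded in mtDNA and transcribed by the Polrmt protein. Crude mitochondria carry cytosolic ribosomes along, and since the repeats of the precursor are largely missing from the assembled mouse genome, reads of cytosolic rRNA align to scattered loci with like sequence. Gm42418, Lars2, Gm15564 and Mir6236 are known as such places in mouse RNA sequencing.

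Among the 5 loci, the annotation bears directly on this reading for Gm42418 alone. Gm42418 (ENSMUSG00000098178, a lincRNA in GENCODE M21 on GRCm38, chr17:39846958-39848788, plus strand) is 1831 bases long and lies in a copy of the rRNA precursor. RefSeq places the 18S pseudogene Rn18s-rs5 at chr17:39846354-39848202. Of the bases of Gm42418, 1245 lie within this pseudogene and 586 lie beyond its end. The stretch below spans that border, with the bases inside Rn18s-rs5 in capitals, at chr17:39848143-39848262 on the plus strand.
Gm42418: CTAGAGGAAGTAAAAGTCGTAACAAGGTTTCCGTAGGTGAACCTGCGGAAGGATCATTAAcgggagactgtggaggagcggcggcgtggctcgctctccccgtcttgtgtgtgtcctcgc

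GENCODE also places an rRNA-type gene, CT010467.1, over all 1831 bases of Gm42418 on the opposite strand, and AY036118 over 923 of them. No counted row was matched to CT010467.1 or AY036118, so counts of their own are not known. The sources used here do not say whether the authors' counting used strand, so reads of these overlapping genes may not be told apart from those of Gm42418. Likeness of the other loci to 28S rRNA was not analysed here.

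Lars2 (ENSMUSG00000035202, chr9:123366927-123462666, plus strand) is the one protein-coding gene of the set and encodes the mitochondrial leucyl-tRNA synthetase. Gm15564 (ENSMUSG00000086324, an antisense transcript, chr16:35966752-35983230, minus strand) lies on another chromosome and shares sequence with it. The last exon of the Lars2-201 transcript, exon 21 of 21, matches Gm15564 over 72 aligned bases at 98.6% identity, with 1 mismatch and no gap. The match lies in the 3′ UTR of Lars2, at chr9:123462048-123462119. Of the longest identical run, which is 52 bases long, 30 bases are shown because they join these loci; they are read from chr9:123462049-123462078 on the plus strand and from chr16:35981766-35981795 on the minus strand, with no capitals.
Lars2 and Gm15564: aattcaccaagcgttggattgttcacccac

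This 30-base run occurs in transcripts of 3 genes, the other one being AA474408, which had 0, 4 and 0 counts in knockout libraries and 1, 3 and 1 in control libraries. The remaining loci are short and annotated as miRNA genes. Mir6236 (ENSMUSG00000098973, chr9:110281287-110281409, plus strand) is 123 bases long, and no other gene matched it over at least 50 bases at 95% identity. The counts at Mir6236 are gene counts over the whole hairpin, and do not show that a mature miRNA was present. Gm23935 (ENSMUSG00000076258, chr16:11144125-11144181, plus strand) is 57 bases long and lies inside Zc3h7a on the opposite strand, outside its exons. Copies of it exist elsewhere. Gm24270 (chr9:56223715-56223771, minus strand) and Gm24245 on chromosome 4 are identical to it over all 57 bases. Gm24187 (chr13:9834469-9834525, minus strand) differs by 1 base, given in capitals in both sequences, and is shown because its counts are compared with those of Gm23935.
Gm23935: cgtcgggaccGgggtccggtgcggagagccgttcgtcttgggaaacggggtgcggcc
Gm24187: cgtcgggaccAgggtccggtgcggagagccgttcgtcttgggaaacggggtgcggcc

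Base composition set some of these loci apart from other genes. Gm23935 was 73.7% G and C, higher than 99.9% of 55450 genes, and Gm42418 was 60.2%, higher than 96.8% of them. Mir6236 had 56.1%, Lars2 51.2% and Gm15564 48.4%, higher than 89.7%, 72.1% and 57.9% of the genes. The genes were described by their longest transcript.

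The 5 loci took most of the nuclear counts in both groups, and the groups did not differ in that share by more than their spread. The loci held 84.9%, 83.2% and 82.0% of nuclear counts in knockout libraries 1, 2 and 3, against 84.6%, 80.6% and 81.4% in control libraries 1, 2 and 3. The ranges overlapped. The means were 83.4% ± 1.47 in knockouts and 82.2% ± 2.11 in controls (SD, n = 3 each), a difference of 1.19 percentage points with a 2-sided exact permutation p of 0.4. The difference was 2.40 points without control 1, 1.89 without knockout 3, 0.777 without control 3, 0.423 without knockout 1 and 0.409 without control 2, so its size rests on single libraries. The smallest p that 3 against 3 libraries can give is 0.1. Against the other nuclear counts of the same library, the log2 ratio of the 5-locus counts was 2.33 ± 0.15 in knockouts and 2.21 ± 0.21 in controls (SD, n = 3 each, exact permutation p = 0.5).

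Gm42418 held by far the most counts of the set. It had 536259, 553158 and 605606 counts in knockout libraries, against 331405, 352958 and 375876 in control libraries. These were 64.0%, 64.5% and 66.5% of nuclear counts in knockouts, against 66.4%, 63.5% and 64.1% in controls. The highest raw counts were in knockouts, whose nuclear totals were also larger, and the shares overlapped (65.0% ± 1.31 in knockouts and 64.7% ± 1.503 in controls, SD, n = 3 each, exact permutation p = 0.6, adjusted over the 5 loci 0.875).

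Lars2 followed with 73373, 73162 and 83696 counts in knockout libraries, against 44363, 47743 and 50182 in control libraries. Its share of nuclear counts was 8.76%, 8.53% and 9.19% in knockouts, against 8.88%, 8.59% and 8.56% in controls. The shares overlapped and lay within 1 percentage point of each other (exact permutation p = 0.7, adjusted 0.875). Gm15564, the locus that shares sequence with Lars2, had 15407, 15226 and 16704 counts in knockouts and 9325, 9836 and 9790 in controls, which were 1.67% to 1.87% of nuclear counts over the 6 libraries (exact permutation p = 0.6, adjusted 0.875).

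Gm23935 was the locus that varied most, and it did so among the knockouts. It had 71677, 59387 and 29502 counts in knockout libraries, against 28821, 29344 and 33238 in control libraries. Its share of nuclear counts was 8.55%, 6.93% and 3.24% in knockouts, against 5.77%, 5.28% and 5.67% in controls. Knockouts 1 and 2 lay above all controls and knockout 3 below all of them. The means were 6.24% ± 2.72 in knockouts and 5.57% ± 0.258 in controls (SD, n = 3 each, exact permutation p = 0.7, adjusted 0.875). The exact 95% binomial interval of the share ran from 8.49% to 8.61% in knockout 1 and from 3.203% to 3.28% in knockout 3, so the gap between these libraries exceeded counting error.

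Mir6236 had 14960, 12494 and 11314 counts in knockout libraries, against 8471, 7998 and 8024 in control libraries. The share of nuclear counts was 1.79%, 1.46% and 1.24% in knockouts, against 1.697%, 1.44% and 1.37% in controls, and library 1 was the highest of each group (exact permutation p = 1.0). For 0 of the 5 loci were the shares of the groups apart, while they were apart for 25.4% of the nuclear rows tested. Mir6236 in knockout 3 was the lowest value of the set, just inside the 1% rule. The next nuclear row by lowest share was Ttn, the giant protein of the sarcomere, with 0.782% to 1.29% of nuclear counts over the 6 libraries. Ttn passed 1% in libraries 2 and 3 of both groups, but not in library 1 of either. Then came Myh6, the alpha heavy chain of cardiac myosin, with 0.602% to 0.895%. Atp2a2, the calcium pump of the sarcoplasmic reticulum, lay well below the rule with 0.155% to 0.440%.

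**Figure D1:**
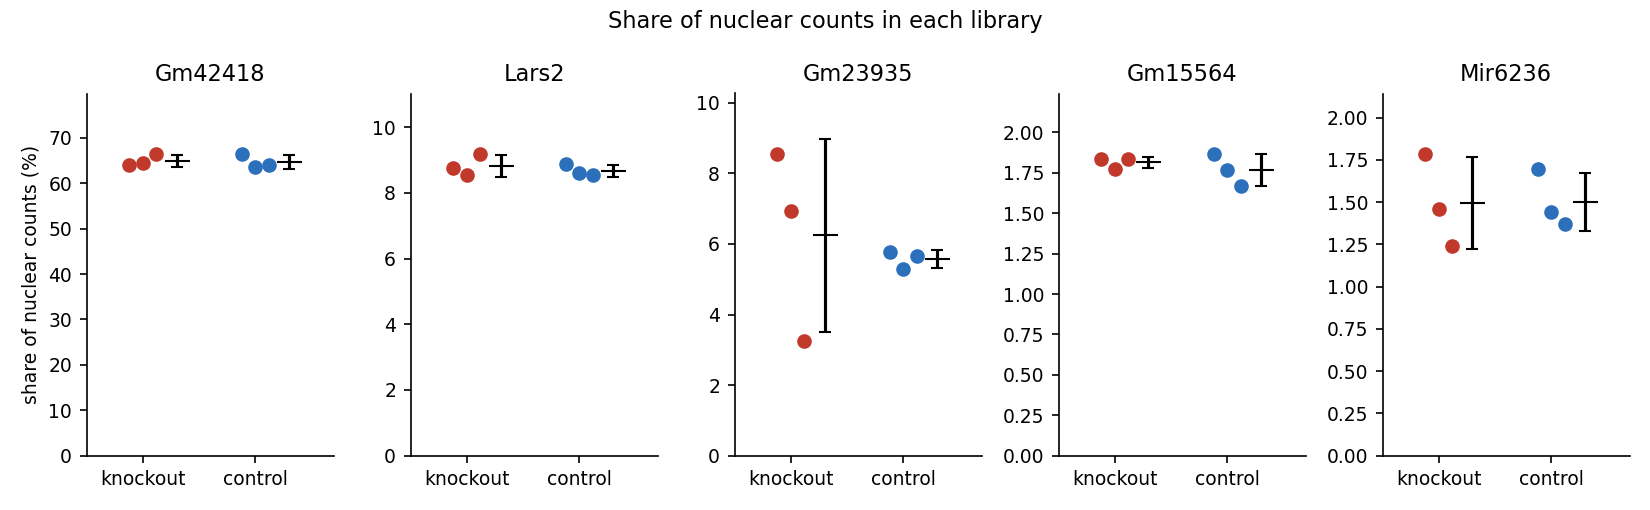
Share of nuclear counts (%, axes from 0 with a scale for each locus) of the 5 loci in the 3 knockout and 3 control libraries, with 1 point per library and the mean ± SD as a bar beside the points. Gm23935 ran from 3.24% to 8.55% among knockouts, while its controls lay between 5.28% and 5.77%.

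Per length the order was another one. Per kilobase of annotated exon and 1000000 nuclear counts, Gm23935 had 568250 to 1500600 counts in knockouts and 926660 to 1012600 in controls. Gm42418 had 349490 to 363130 in knockouts and 346980 to 362480 in controls. Mir6236 followed with 100990 to 145140 in knockouts and 111240 to 137920 in controls on this scale. Gm15564 had 21635 to 22394 in knockouts and 20333 to 22746 in controls, and Lars2 had 7697 to 8287 in knockouts and 7716 to 8012 in controls. The ranges of different loci did not overlap in either group. Lars2 came last because its annotated exons cover 11089 bases. A read may be longer than Gm23935 or Mir6236, so these levels depend on how such reads were assigned.

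In the edgeR quasi-likelihood test across 3363 rows, 0 of the 5 loci differed between knockout and control at an adjusted p under 0.05, in a test where 13.4% of all rows were called. None of the 5 had an unadjusted p under 0.05 in edgeR or in DESeq2 either. DESeq2 called 2.89% of its rows. In counts per 1000000 of the TMM-scaled library size (CPM), Gm42418 averaged 243480 ± 14814 in knockouts and 241170 ± 32397 in controls (SD, n = 3 each). Its log2 fold change was 0.01 ± 0.21 SE (edgeR adjusted p = 0.979). The log2 fold changes of Lars2 (0.03 ± 0.19 SE) and Gm15564 (0.04 ± 0.18 SE) were as near 0, and that of Mir6236 was 0.007 ± 0.18 SE. Gm23935 had 34723, 25748 and 11245 CPM in knockouts, against 24155, 17967 and 20308 CPM in controls. Both the highest and the lowest of these were knockouts, and its log2 fold change of 0.20 ± 0.33 SE had the largest error of the set (edgeR adjusted p = 0.790). The CPM of knockouts and controls did not overlap for 0 of the 5 loci, and for 29.3% of all rows tested. The median log2 fold change was 0.03 over the 5 loci and 0.004 over all rows tested. TMM sets the bulk of tested rows to no change, and without any scaling other than library size all 5 had positive fold changes, between 2.10 and 2.27 on the log2 scale, where the median of all rows tested was 2.06.

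In the authors' deposited table the log2 fold changes of the 5 loci lay between 0.13 and 0.37, and none had a false discovery rate under 0.05, where 5.32% of the rows in the authors' deposited table had one. The largest there was that of Gm23935, 0.37 with a false discovery rate of 0.419. The ratio of the authors' normalised values to the raw counts varied between loci and libraries. For Gm23935 they were 0.383, 0.663 and 0.771 of the raw counts in knockouts, against 0.773, 0.805 and 0.699 in controls. For Gm42418 they were 0.869, 0.844 and 0.825 of the raw counts in knockouts, against 1.2995, 1.13 and 1.19 in controls. In knockout 3 the value of Gm23935 lay between those of Lars2 (0.708) and Gm42418. The normalised values of Gm23935 were 27468, 39358 and 22750 in knockouts, against 22293, 23636 and 23244 in controls, so that the highest knockout was library 2 and not library 1.

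In raw counts the loci fell into those that kept a nearly constant ratio to Gm42418 and those that did not. Over the 6 libraries, Lars2 had 0.135 counts per count of Gm42418 as a geometric mean, and the ratio varied 1.04-fold. The log2 ratio of Lars2 to Gm42418 was -2.87, -2.92 and -2.86 in knockouts, against -2.90, -2.89 and -2.91 in controls. These overlapped, with an SD of 0.02 over the 6 libraries, where counting error alone would give 0.006. Gm15564 had 0.0276 counts per count of Gm42418, and this ratio varied 1.10-fold. The ratio of Gm15564 to Lars2, which share the run of sequence printed above, was 0.205 and varied 1.08-fold. In the authors' normalised values the ratios to Gm42418 were less constant. The log2 ratio ran from -3.08 to -2.76 for Lars2 and from -5.41 to -5.01 for Gm15564 over the 6 libraries. For Gm23935 it ran from -4.46 to -3.57, so the contrast between the loci was smaller there.

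Mir6236 and Gm23935 moved more. The log2 ratio of Mir6236 to Gm42418 was -5.16, -5.47 and -5.74 in knockouts, against -5.29, -5.46 and -5.55 in controls. It was lowest in library 3 and highest in library 1 of each group, and varied 1.49-fold over the 6 libraries. The log2 ratio of Gm23935 to Gm42418 was -2.90, -3.22 and -4.36 in knockouts, against -3.52, -3.59 and -3.50 in controls. It varied 2.74-fold over all libraries, with both extremes among the knockouts, while the controls lay between -3.59 and -3.50 on the log2 scale. Of the 10 pairs of loci, the groups overlapped in every one (exact permutation p from 0.5 to 1.0, adjusted over the 10 pairs 1.0 for each).

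**Figure D2:**
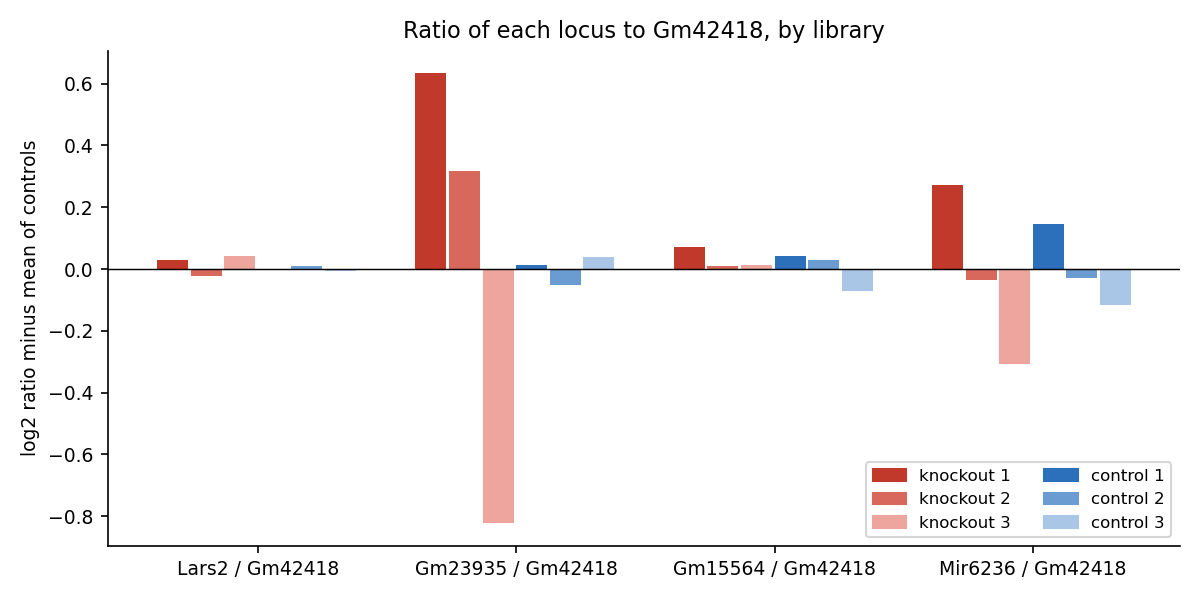
Log2 ratio of the counts of 4 loci to those of Gm42418 in each library, less the mean of the control libraries, with 1 bar per library and 0 marking that mean. The bars of Lars2 and Gm15564 stay close to 0 in all 6 libraries, whereas those of Gm23935 point up in knockouts 1 and 2 and down in knockout 3.

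As parts of the 5-locus total, Gm42418 made up 75.4%, 77.5% and 81.1% in knockouts, against 78.5%, 78.8% and 78.8% in controls. Gm23935 made up 10.1%, 8.32% and 3.95% in knockouts, against 6.82%, 6.55% and 6.97% in controls. The shares are parts of 1 total, and where that of Gm23935 was high that of Gm42418 was low. Lars2 held 10.3% to 11.2% of the total in knockouts and 10.5% to 10.7% in controls, and none of the 5 shares differed beyond the spread (exact permutation p from 0.7 to 1.0, adjusted over the 5 loci 1.0 for each).

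The copies of Gm23935 had like counts in knockouts 2 and 3, where those of Gm23935 itself differed. Gm24270, which has the same 57 bases and was picked after its values were seen, had 1035, 933 and 908 counts in knockouts, against 524, 863 and 844 in controls. Its knockouts were alike, and its log2 fold change was -0.25 ± 0.14 SE (edgeR adjusted p = 0.275), and this sign turned where no scaling other than library size was used. There were 69.3, 63.7 and 32.5 counts of Gm23935 per count of Gm24270 in knockouts, against 55.0, 34.0 and 39.4 in controls. Knockouts 1 and 2 had the highest of these ratios and knockout 3 the lowest. Gm24187, with 1 base different, had 585, 452 and 455 counts in knockouts, against 301, 339 and 309 in controls (log2 fold change 0.01 ± 0.14 SE). Reads that match several copies equally can be split or dropped in counting, and the sources used here do not say how the authors treated them, so the counts of these copies are uncertain.

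The groups separated in the ratio of the 5-locus counts to those of mitochondrial rRNA. The mtDNA rRNAs, mt-Rnr1 of the small and mt-Rnr2 of the large subunit, together had 206195, 215565 and 292266 counts in knockouts, against 2108117, 2243121 and 1884219 in controls. All knockouts lay below all controls. The 5-locus counts were 711676, 713427 and 746822 in knockouts, against 422385, 447879 and 477110 in controls. For each count of mtDNA rRNA there were thus 3.45, 3.31 and 2.56 counts at the 5 loci in knockouts, against 0.200, 0.1997 and 0.253 in controls. The log2 ratio averaged 1.62 ± 0.23 in knockouts and -2.21 ± 0.20 in controls (SD, n = 3 each), a difference of 3.83 or 14.2-fold. The groups did not overlap (exact permutation p = 0.1, the smallest possible here, and 0.3 adjusted over the 3 comparisons of the 5-locus total).

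The difference between group means was nearly the same whichever locus was used. Relative to mtDNA rRNA, Gm42418 was 14.1-fold higher in knockouts than in controls, Lars2 14.3-fold, Gm23935 14.5-fold, Gm15564 14.4-fold and Mir6236 13.9-fold. The groups did not overlap for 5 of the 5 loci (exact permutation p = 0.1 each, also adjusted), which is the background level, since 99.9% of the nuclear rows tested did the same. The spread was not alike, as the log2 ratio of Gm23935 to mtDNA rRNA was -1.52, -1.86 and -3.31 in knockouts, against -6.19, -6.26 and -5.83 in controls, with an SD of 0.95 in knockouts. Leaving out 1 library moved its difference between 3.51 and 4.40 on the log2 scale. In the edgeR test the log2 fold change was -4.12 ± 0.24 SE for mt-Rnr1 (adjusted p = 9.24e-40) and, for mt-Rnr2, -3.69 ± 0.24 SE (adjusted p = 1.19e-33), relative to the bulk of nuclear rows. The difference in the log2 ratio was 4.14 against mt-Rnr1 alone and 3.70 against mt-Rnr2 alone. In such bulk samples fewer cells or mitochondria of a kind and less RNA in each cannot be told apart.

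**Figure D3:**
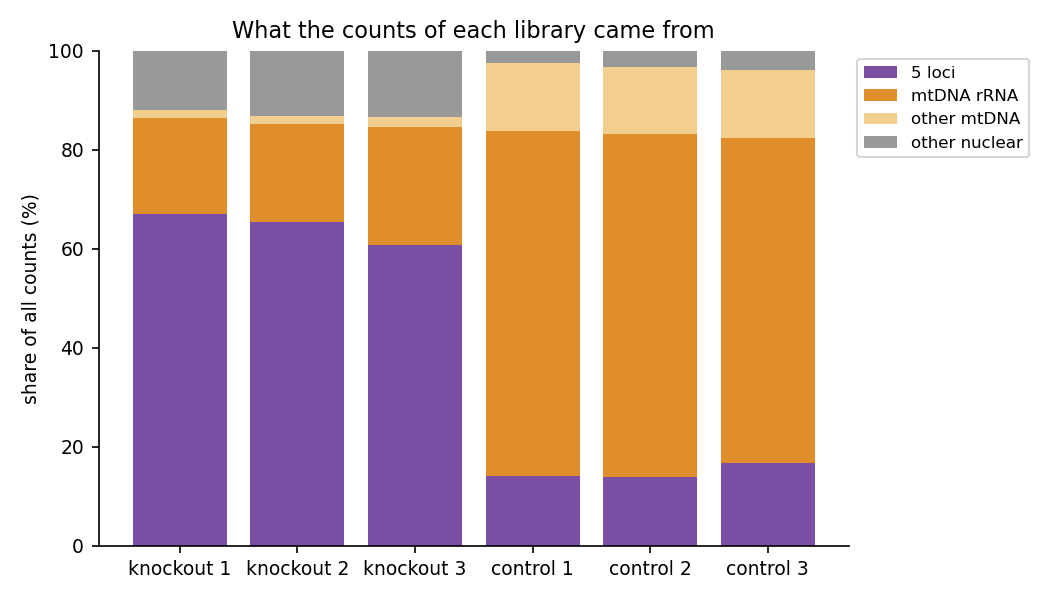
Share of all gene-assigned counts (%) in each library that came from the 5 loci, the mtDNA rRNAs, other mtDNA rows and other nuclear rows. The 5 loci held 67.0%, 65.4% and 60.8% in knockouts, against 14.0%, 13.8% and 16.6% in controls, and the mtDNA rRNAs 19.4%, 19.8% and 23.8% in knockouts, against 69.8%, 69.3% and 65.7% in controls.

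The libraries held 1062030 to 1227997 gene-assigned counts in knockouts and 2867067 to 3234729 in controls. Of these counts, nuclear rows other than the 5 loci had 126339 to 164004 in knockouts and 76949 to 109351 in controls, which limits what can be said of them. Markers of macrophages, 4 of 4 with counts, summed to 76.5 to 116 per 1000000 other nuclear counts in knockouts and 214 to 338 in controls. At these totals the macrophage sums rest on few counts per library. The markers of heart muscle summed to 62039 to 68072 in knockouts and 67005 to 77539 in controls, and those of fibroblasts (6 of 6 with counts) to 9152 to 10432 in knockouts and 10197 to 11241 in controls. The markers of endothelium (5 of 5) summed to 1077 to 1321 in knockouts and 1262 to 1573 in controls, and those of blood (5 of 5) to 925 to 1701 in knockouts and 854 to 1847 in controls. No marker was at 0 over all libraries, and the part of these cell types in the results was not tested.

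Among the other rows annotated as rRNA or reported to hold its sequence, Gm26917 stood out on the same stretch of chromosome 17. It lies at chr17:39843013-39846341, 12 bases before Rn18s-rs5 and 616 bases before Gm42418, and is 69.1% G and C. It had 958, 1179 and 394 counts in knockouts, against 182, 220 and 250 in controls. In raw counts every knockout lay above every control, and knockout 3 was the lowest of the knockouts, as it was for Gm23935. At 464, 511 and 150 CPM in knockouts, against 153, 135 and 153 CPM in controls, the groups overlapped, with knockout 3 between the controls. Against the 5-locus total these counts were 0.135%, 0.165% and 0.0528% in knockouts, against 0.0431%, 0.0491% and 0.0524% in controls, so that knockout 3 hardly exceeded control 3. The log2 ratio of Gm26917 to the 5-locus counts was 1.13 higher in knockouts, or 2.20-fold (exact permutation p = 0.1, the smallest possible).

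The log2 fold change of Gm26917 was 1.35 ± 0.52 SE in the edgeR test, and it did not pass (adjusted p = 0.205). In the authors' deposited table it was 1.53 with a false discovery rate of 1.22e-04. Without knockout 3 the edgeR log2 fold change was 1.75 (adjusted p = 7.88e-14), in a fit where 6.85% of rows were called, so the call for Gm26917 turned on that library. The log2 ratio of Gm23935 to Gm26917 was 6.04 ± 0.33 in knockouts and 7.14 ± 0.14 in controls (SD, n = 3 each), with no overlap. The exact permutation p of 0.1 is the smallest possible here. Gm26917 was singled out by its values, so its ratios to the loci are a description. Of 59 tested nuclear rows with at least 100 counts in every library, its log2 ratio to the total of the loci varied most (SD 0.84). In share of nuclear counts, the groups were apart for 25.4% of the nuclear rows tested.

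**Figure D4:**
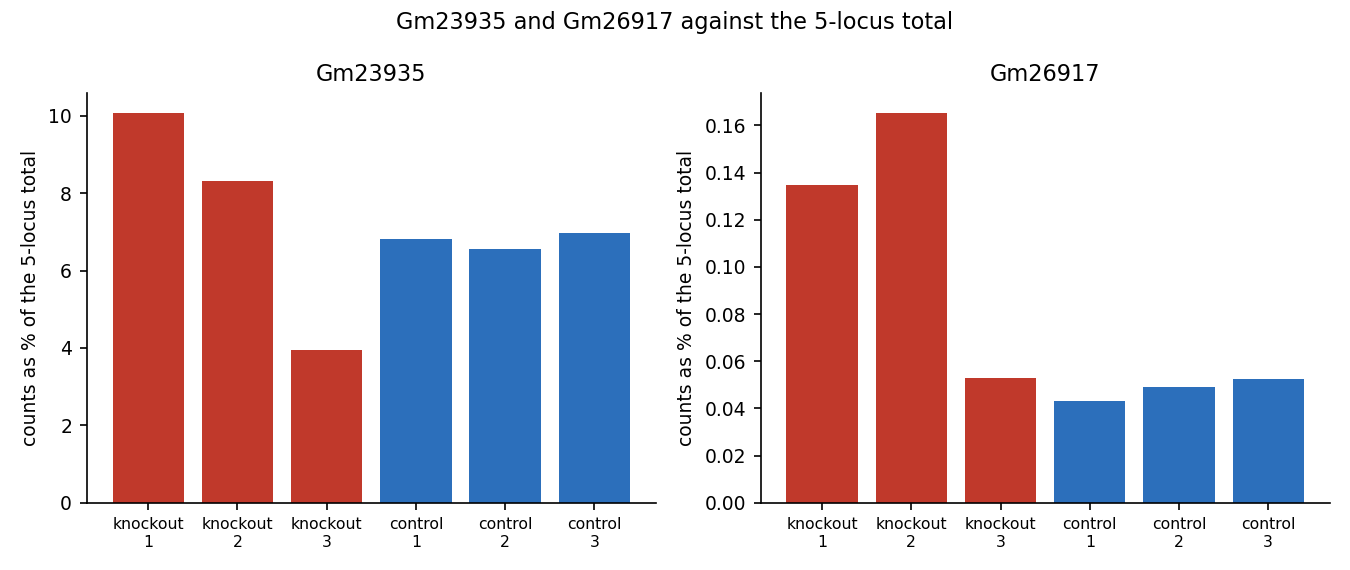
Counts of Gm23935 and of Gm26917 as a percentage of the 5-locus total, with 1 bar per library, axes from 0 and a scale for each. In both panels knockouts 1 and 2 exceed all controls, while knockout 3 lies below the controls for Gm23935 (3.95%) and beside them for Gm26917 (0.0528%).

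The 5S rRNA, made by another polymerase from genes of its own, took few counts, and its groups overlapped relative to the 5 loci. The files hold 180 rows of 5S genes and pseudogenes, of which 20 had counts. Together they had 768, 665 and 794 counts in knockouts, against 589, 557 and 389 in controls. These were 0.0776% to 0.0916% of nuclear counts in knockouts and 0.0663% to 0.118% in controls, so the ranges overlapped. The log2 ratio to the 5-locus counts was -9.93 ± 0.12 in knockouts and -9.80 ± 0.41 in controls (SD, n = 3 each, exact permutation p = 0.6). Most of the counts were those of n-R5s193, with 503, 450 and 580 in knockouts and 430, 388 and 278 in controls (log2 fold change -0.21, edgeR adjusted p = 0.609). Next came n-R5s156 with 51 to 102 counts per library and n-R5s194 with 37 to 109. The rows n-R5s115, n-R5s33, n-R5s151 and n-R5s136 had 2 to 20 counts per library. The likeness of these rows to each other was not examined, and how reads shared between such copies were counted is not known. Of all these other rRNA rows together, Gm26917 included and mtDNA rRNAs left out, 6 were tested and 0 passed in either direction (0 at an unadjusted p under 0.05; by DESeq2 0, and 1 unadjusted), with a median log2 fold change of 0.15. Over all rows tested 13.4% were called by edgeR and 2.89% by DESeq2, so that 0 of 6 is close to the background.

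Lars2 belongs to the aminoacyl-tRNA synthetases of mitochondria, which load tRNAs for translation of mtDNA mRNAs. The list set beside it has 18 other synthetases and 3 subunits of the amidotransferase that completes glutaminyl-tRNA (Qrsl1, Gatb and Gatc). Lars2 had 73373, 73162 and 83696 counts in knockouts and 44363, 47743 and 50182 in controls, while the 21 other listed genes together had 146, 142 and 199 in knockouts, against 42, 69 and 88 in controls. On the scale per kilobase of exon and 1000000 nuclear counts, where Lars2 had at least 7697, the highest other gene of the list had 22.4 to 29.2 in knockouts and 2.25 to 7.65 in controls. In each knockout, and in controls 2 and 3, that gene was Gars, which serves the cytosol as well as mitochondria. In control 1 it was Iars2, the isoleucyl-tRNA synthetase.

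Of the 21 others, 4 passed the filter on low counts, and 1 was higher in knockouts, 0 were lower and 3 did not pass the test. Among all rows tested 6.66% were higher and 6.78% lower. Gars had 68, 60 and 83 counts in knockouts, against 0, 6 and 14 in controls. All knockouts lay above all controls in raw counts, but the nuclear totals were also larger in knockouts. In CPM, Gars averaged 30.2 ± 3.68 in knockouts and 4.08 ± 4.29 in controls (SD, n = 3 each). The fitted log2 change of Gars was 2.74 ± 0.32 SE (edgeR adjusted p = 4.96e-09). Without control 3 its log2 fold change was 3.79. Iars2 (-0.24 ± 0.30 SE), Kars (-0.24 ± 0.40 SE), which charges lysine tRNAs of cytosol and mitochondria, and Vars2 (-0.19 ± 0.44 SE), the valyl-tRNA synthetase, had values below 0. The median of the 4 was -0.21. With its own filter on low counts, DESeq2 called 1 of the 21 others higher, also Gars, and 0 lower. It called 1.73% of all its rows higher and 1.16% lower.

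**Figure D5:**
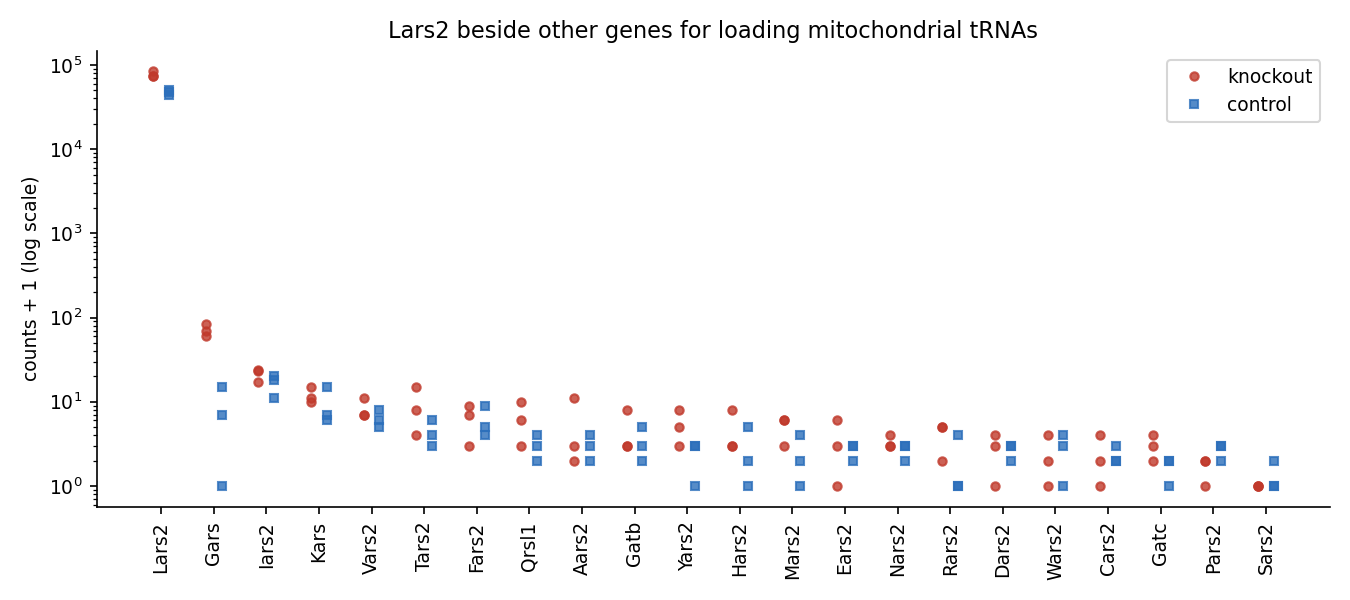
Counts plus 1 (log scale) of Lars2, 18 other synthetases of mitochondria and 3 amidotransferase subunits, with 1 point per library, knockouts as circles left of the controls as squares. Lars2 lies between 44363 and 83696 counts, and no other gene exceeds 83.

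Genes for making cytosolic rRNA were mostly too low to be tested. Of 50 listed genes, all in the files, 6 passed the filter on low counts, of which 2 were higher in knockouts and 0 were lower, where 6.66% of all rows tested were higher and 6.78% lower. With its own filter on low counts, DESeq2 called the same 2 of the 50 listed genes higher and 0 lower. It called 1.73% of all its rows higher and 1.16% lower. The median log2 fold change of the 6 was 0.36, against 0.004 over all rows tested. Ncl, the nucleolar protein nucleolin, had 89, 66 and 77 counts in knockouts, against 20, 34 and 31 in controls (log2 fold change 0.81 ± 0.20 SE, edgeR adjusted p = 0.00133). Rrp12, which takes part in maturation and export of ribosomal subunits, had 20, 27 and 21 counts in knockouts, against 3, 4 and 3 in controls (log2 fold change 2.09 ± 0.43 SE, edgeR adjusted p = 7.27e-05). For both, all knockouts lay above all controls in raw counts, but the nuclear totals were also larger in knockouts. In CPM, Ncl averaged 33.7 ± 8.17 in knockouts and 18.8 ± 2.03 in controls (SD, n = 3 each). Rrp12 averaged 9.80 ± 1.85 CPM in knockouts and 2.27 ± 0.376 CPM in controls. Without knockout 1, Ncl did not pass (log2 fold change 0.61, adjusted p = 0.0821). The largest subunit of RNA polymerase I, Polr1a, had a log2 fold change of 0.45, its initiation factors Ubtf and Rrn3 had 0.24 and 0.14, and the nucleolar chaperone Npm1 had 0.27, none past the test.

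Protein-coding genes that overlap Gm23935 and Gm15564 had few counts. CT010467.1 and AY036118, opposite Gm42418, were matched to no counted row, so no value is given for them. Zc3h7a, in which Gm23935 lies, had 3 to 7 counts in knockouts and 1 to 4 in controls. Gm15564 overlaps Parp9, with 2 to 4 counts in knockouts and 2 in each control, and Kpna1, an importin of nuclear transport, on the opposite strand and outside their exons. Kpna1 had 25, 19 and 26 counts in knockouts, against 7, 7 and 10 in controls (log2 fold change 0.89 ± 0.34 SE, edgeR adjusted p = 0.0678). The protein-coding genes named here were chosen after their values were seen.

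Of 59 tested nuclear rows with at least 100 counts in every library, those whose log2 ratio to the 5-locus total varied little over the 6 libraries included Ckmt2, the mitochondrial creatine kinase of striated muscle, and Col1a1, a chain of type I collagen, each with an SD of 0.12. The small nuclear RNA gene Gm23971 had 0.14, and Gm24187, the near copy of Gm23935, with 0.17. The median over the 59 rows was 0.30. On the same measure Gm42418, which makes up most of the total, had 0.03, Gm15564 0.04, Lars2 0.05 and Mir6236 0.17, while Gm23935 had 0.45, above that median. The 5 loci are parts of this total and had more counts than most of the 59 rows. Counting error adds more to the SD of rows with fewer counts, so these SDs are not on an equal footing.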

How the data were processed

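Per the labels' protocols, RNA of crude heart mitochondria was isolated with the miRNeasy kit, made into Illumina TruSeq libraries and sequenced as paired ends on a MiSeq. The submitters' processing notes name HISAT 0.1.6, featureCounts 1.3.5-p4, edgeR 3.11.2, R 3.2.0 and the build GRCm38. The sources used here give no strand setting, treatment of multiply aligned reads or annotation release. The deposited files hold whole-number raw counts per gene, the basis of all results here. In a second deposited set the values were normalised by the authors and are whole numbers, taken here as a score. The authors' deposited table gives, per the file headers, log2 fold changes, a likelihood ratio score, p-values and false discovery rates.

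Of 39177 rows, 35 are mtDNA values and 39142 nuclear rows, 37656 of them with a symbol in GENCODE M21 (GRCm38). The 5 loci and the gene lists were chosen with earlier results of these data known. Tests of knockout against control used the quasi-likelihood fit of edgeR 4.0.16 under R 4.3.3 (robust, TMM, filterByExpr with minimum count 10 and minimum total 15), Benjamini-Hochberg adjusted over 3363 rows, and called at an adjusted p under 0.05. The SE is the one implied by the F statistic. DESeq2 1.42.0 was an alternative. Values per library were compared by 2-sided exact permutation tests, and shares have exact Clopper-Pearson 95% intervals, which cover counting error only. Nuclear rows at 3 counts lie at 3.29 to 3.58 counts per 1000000 nuclear counts in knockouts and at 5.12 to 6.01 in controls. The procedure was tested on simulated data. Sequences come from GENCODE M21 transcripts, with the span of Rn18s-rs5 from RefSeq, and were compared with blastn.

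Named were the 5 loci, the mtDNA rRNAs, the next 3 nuclear rows by lowest share, up to 8 other rRNA rows with at least 10 counts, synthetases past the test or among the 4 with most counts, rRNA synthesis genes past the test, and the 5 rows most like the 5-locus total, of which 1 is not reported here. Other genes are named after their values were seen. Each library is taken as 1 mouse, as the series' design text gives 3 mice per group. No batch is given in the labels.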

Additional observations from a re-analysis of the deposited data

How the results depend on the processing

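Of 464 values recomputed under another setting, 402 kept their direction and side of the threshold and 49 changed sign. With no scaling beyond the library size, edgeR called 5 of the 5 loci higher, as it did 3325 of all rows, along with 6 rRNA synthesis genes, 4 mitochondrial synthetases and 6 other rRNA rows, and the log2 fold change of Gm24270 was 1.81. DESeq2 size factors, nuclear rows alone, no low-count filter and the DESeq2 test left 0 of the 5 loci called. Whether the replicate numbers in the titles pair the libraries is not known. Same-numbered deviations of nuclear rows correlated at -0.0197, 0.0181 and 0.0221. Low counts in most of these rows weaken such correlations, so the values cannot decide it. With the replicate block edgeR called 212 rows higher and 217 lower, against 224 and 228 without it, 0 of the 5 loci were called, and the log2 fold change of Mir6236 was -0.0032. Leaving out 1 library at a time, the log2 fold change ran from -0.058 to 0.13 for Gm42418, from -0.036 to 0.14 for Lars2, from -0.16 to 0.55 for Gm23935, from -0.026 to 0.18 for Gm15564 and from -0.21 to 0.21 for Mir6236. In settings chosen after seeing the data, leaving out 1 library gave 0 to 1 other rRNA rows called higher. The difference in the log2 ratio of 5S rows to the 5 loci ran from -0.36 to 0.022. The difference in the log2 ratio to mtDNA rRNA ran from 3.75 to 3.97 and that to other nuclear counts from 0.04 to 0.24. For the pairs it ran from -0.25 to 0.48 (Gm23935/Gm42418), -0.0032 to 0.053 (Gm15564/Gm42418), -0.17 to 0.12 (Mir6236/Gm42418), -0.26 to 0.47 (Gm23935/Lars2), -0.016 to 0.038 (Gm15564/Lars2), -0.18 to 0.12 (Mir6236/Lars2), -0.43 to 0.26 (Gm15564/Gm23935), -0.36 to 0.082 (Mir6236/Gm23935) and -0.18 to 0.077 (Mir6236/Gm15564). The difference in the share of nuclear counts, in percentage points, ran from 0.409 to 2.40 for the 5 loci together, from -0.404 to 1.19 for Gm42418, -0.0331 to 0.294 for Lars2, -0.490 to 2.17 for Gm23935, -0.00276 to 0.0963 for Gm15564 and -0.152 to 0.120 for Mir6236. In the 5-locus total it ran from -2.24 to 0.630, -0.278 to 0.198, -0.643 to 2.42, -0.0233 to 0.0546 and -0.191 to 0.102 for the same loci in that order. Without knockout 3 the adjusted p of Gm23935 was 0.138. The cause of these changes was not tested.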
